A study of Homo sapiens with 12 samples.

Results

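Hepatokines are proteins that the liver secretes and that act on other tissues. The 7 examined here were 2 angiopoietin-like proteins, ANGPTL4 and ANGPTL6, 2 fibroblast growth factors, FGF19 and FGF21, the fetuins AHSG (fetuin-A) and FETUB (fetuin-B), and the retinol carrier RBP4. They were chosen by name, as the rows of the gene count table that carry these symbols, and are 7 of the 26364 genes in it. All 7 rows were found, and 5 of them, AHSG, RBP4, FETUB, ANGPTL4 and ANGPTL6, passed the filter on low counts with 13852 genes in all. FGF19 and FGF21 were too low to judge, and ANGPTL4 and ANGPTL6 were read at so few counts that only very large changes could have been seen.

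RNA was sequenced from HepG2 cells, an immortal line grown from a human liver tumour, at 0, 5, 10, 30 and 240 min of insulin, with 2 libraries at each time. The times are those in the library titles. No later time had libraries without insulin, so insulin and the time elapsed since 0 min cannot be told apart. The treatment text deposited with these libraries gives 3 nM insulin after 16 h in EMEM, a basal culture medium, but it gives the same 5 min to each of them and is joined to a protocol for DNA, so whether that concentration holds for the time course is not settled. The methods state that the RNA-seq was done in a single experiment on samples that were biologically independent, and the labels do not say which cultures the replicates came from, so the p-values measure the spread between libraries of 1 experiment. In a separate experiment, 1 library of chromatin precipitated with an antibody to the insulin receptor (IR) gave a list of 1971 peaks. The treatment text of that library and of its input also gives 3 nM insulin. HepG2 is a single line and stands for hepatocytes alone, without the other cells of the liver.

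In the liver, insulin acts through its receptor to turn gluconeogenic genes down and lipogenic genes up, and part of this runs through the transcription factor FOXO1. Hepatokines report the metabolic state of the liver to other organs: fetuin-A binds the insulin receptor and damps its kinase activity, RBP4 carries retinol out of the liver, and FGF21 is a hormone of fasting and of nutrient stress. ANGPTL4 inhibits lipoprotein lipase and is induced by fatty acids through PPAR factors, and FGF19 is made mainly by the gut in response to bile acids and acts on the liver through FGFR4 and its co-receptor beta-klotho.

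The libraries held 18347109 to 45005769 counts on genes, and the deepest was a 0 min library. All 13 hepatocyte markers were tested and their summed level was 69450 to 86560 CPM (the counts of a gene scaled to the size of its library, after TMM normalization). By mean, APOB (38030 CPM), ALB (17740), SERPINA1 (9713) and AFP (4472) were the highest of these markers, and TAT (5.17) and CYP3A4 (0.78) the lowest. Their sum thus says little about the low ones. Of 14 markers of fibroblasts, endothelium, blood cells and bile duct cells, 8 passed the filter, PTPRC was at 0 in every library, and the sum was 403.5 to 552.1 CPM. Most of that sum was KRT19, at a mean of 387.9 CPM, followed by ACTA2 (54.7) and CD68 (40.3). As these are bulk libraries, fewer cells that express a gene and less RNA of it in each cell cannot be told apart.

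The sequences beside the transcription starts are shown for 3 members whose data they bear on. RBP4 is the only one of the 7 with an IR peak within 5 kb of its body, AHSG is the only one called as changed, and FGF21 had a single count in all libraries together. The RBP4 sequence is the part of the peak that lies before the start in the deposited annotation, up to the first exon of another transcript, at chr10:95360994-95361118 of GRCh37 (hg19), minus strand. The AHSG and FGF21 sequences are the 250 bases before the RefSeq start in GRCh38.p14, at chr3:186612810-186613059 and chr19:48755274-48755523, both on the plus strand. Capitals mark a TATA box (TATAAA) in RBP4 and, in FGF21, the reverse complement of the ATF4 element TGATGCAA. ATF4 is the factor of the amino acid stress response.
RBP4: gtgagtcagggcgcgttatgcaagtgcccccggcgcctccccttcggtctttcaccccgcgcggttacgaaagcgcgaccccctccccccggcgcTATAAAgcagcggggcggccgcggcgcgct
AHSG: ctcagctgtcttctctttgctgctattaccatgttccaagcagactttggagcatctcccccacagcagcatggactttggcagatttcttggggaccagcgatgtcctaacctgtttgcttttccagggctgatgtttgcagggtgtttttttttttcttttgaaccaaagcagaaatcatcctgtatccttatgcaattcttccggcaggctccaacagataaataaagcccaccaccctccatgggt
FGF21: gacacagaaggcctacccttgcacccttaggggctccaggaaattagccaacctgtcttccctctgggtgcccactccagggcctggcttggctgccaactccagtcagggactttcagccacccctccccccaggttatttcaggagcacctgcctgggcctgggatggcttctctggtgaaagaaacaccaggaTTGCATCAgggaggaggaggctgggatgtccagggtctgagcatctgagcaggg

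The RBP4 stretch of 125 bases was 72% G and C with 19 CG pairs, and the AHSG stretch of 250 bases was 46.8% G and C with 2. The median was 58.0% over the first 250 bases of 35097 promoter windows, so the shorter RBP4 stretch is not compared at like length. RefSeq windows of 300 bases, from 250 before to 50 after the start, were found for 6 of the 7 genes, with 11 windows in all and none for FGF19. On either strand, the ATF4 element was in 2 of these windows, those of FGF21 and of 1 RBP4 start, and in 0.866% of all windows. The nuclear receptor element AGGTCA was in 1, an ANGPTL6 window, and in 13.8% of all. None of the 11 held the FOXO element TGTTTAC, which 3.42% of all windows had, the E-box CACGTG (7.25%), the HNF1 element GTTAAT (6.88%), or the PPAR response element made of AGGTCA repeated in the same direction with 1 base between (0.0228%). The TATA box, searched after the sequences had been seen, was in 6 of the 11 windows and in 11.5% of all. Of these 6, 2 are overlapping RBP4 windows that share the same match. The PPAR response element contains AGGTCA, and none of the other motifs overlaps another by construction.

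The fetuins stand next to each other on chromosome 3, on the plus strand, with HRG and KNG1, which encode other proteins of the same cystatin superfamily. In hg19, AHSG lies at chr3:186330850-186339107 and FETUB at chr3:186358149-186370797. The others are RBP4 at chr10:95351593-95360993 (minus strand), FGF19 at chr11:69513006-69519106 (minus), ANGPTL4 at chr19:8429011-8439259 (plus), ANGPTL6 at chr19:10203013-10213425 (minus) and FGF21 at chr19:49259344-49261582 (plus). ANGPTL6 overlaps C19orf66 on the opposite strand, read at 8.83 CPM on average, and the reads were counted by strand. The other members overlap no other gene of the deposited table.

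The 7 genes differed widely in level. In TPM, which is scaled for length and so allows genes to be compared, AHSG had a mean of 4137 over the 10 libraries and ranked 12th among 26364 genes, and RBP4 had 773.2 and ranked 143rd. FETUB followed with 2.72 TPM, ANGPTL4 with 0.509, ANGPTL6 with 0.304 and FGF19 with 0.0267, and FGF21 was listed at 0 TPM in every library. AHSG was above RBP4 in 10 of 10 libraries, by 4.61 to 6.01 times, and above its neighbour FETUB by 1200 to 3048 times. ANGPTL4 and ANGPTL6 overlapped in CPM, at 0.287 to 0.688 and 0.0479 to 0.64 CPM, so their order is not beyond their spread.

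**Figure D1:**
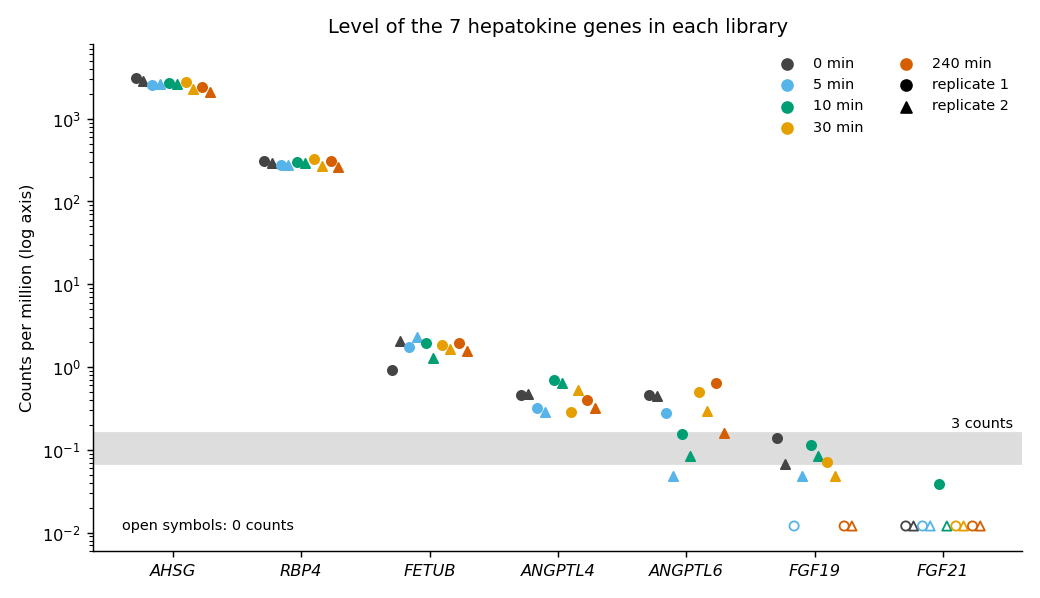
Level of each hepatokine gene in CPM, on a log axis, in each of the 10 libraries (circles for replicate 1, triangles for replicate 2, colours for the times). The grey band marks the level of 3 counts, which is 0.0674 to 0.158 CPM depending on depth, and open symbols mark libraries with 0 counts; no library of FGF19 or FGF21 lies above its own level of 3 counts.

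AHSG mRNA was lower after 240 min of insulin, and it was the only member called at any time. Its level was 3100 and 2818 CPM (0 min), 2546 and 2593 (5 min), 2714 and 2593 (10 min), 2780 and 2268 (30 min), and 2386 and 2110 (240 min). Both 0 min libraries were above all 8 libraries with insulin, and both 240 min libraries were below all except the second 30 min library. From 2959 ± 199 CPM to 2248 ± 195 (SD, n = 2), the log2 fold change at 240 min was -0.40 (SE 0.08, 95% confidence interval -0.56 to -0.23), or 0.76 times, with an adjusted p of 0.000452 in the quasi-likelihood test of edgeR, with adjustment by Benjamini and Hochberg. At that time 41% of all tested genes were called, 20.4% as lower and 20.6% as higher, so that 1 of 5 tested members called is no more than the share among all genes. In size too the fall was not extreme, as 10.3% of the tested genes had a lower log2 fold change.

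At the earlier times no member was called. AHSG had log2 fold changes of -0.20 at 5 min, -0.16 at 10 min and -0.23 at 30 min, with adjusted p of 0.28, 0.95 and 0.40 in edgeR's test. The intervals were -0.37 to -0.04, -0.32 to 0.0061 and -0.39 to -0.07, with unadjusted p of 0.0172, 0.0584 and 0.00845 in that test. An unadjusted p under 0.05 was found for 14.3%, 5.13% and 8.12% of all genes at these times. The comparisons at 5, 10 and 30 min share the 0 min libraries, and so their directions are not independent. The share of all genes called was 0% at 5 min (0 of 13852 by edgeR, 2 by DESeq2 and 1976 at an unadjusted p under 0.05), 0.137% at 10 min and 0.332% at 30 min. Between 30 and 240 min AHSG differed by -0.17 (interval -0.33 to -0.0038, adjusted p = 0.0998), in libraries that overlapped, while 38.2% of all genes were called.

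The summed hepatocyte markers stood at 80780 and 81940 CPM in the 0 min libraries and at 83350 and 69450 CPM in the 240 min libraries. AHSG came to 3.84% and 3.44% of their summed level in the 0 min libraries, to 2.86% and 3.04% in the 240 min libraries and to 3.00% to 3.52% in the other 6, of which the second 5 min library (3.00%) was below the second 240 min library. RBP4 came to 0.383% and 0.353% at 0 min, to 0.372% and 0.376% at 240 min and to 0.322% to 0.394% in the other 6. Of the 13 markers, HNF4A, a transcription factor of hepatocytes, rose at 240 min (log2 0.30), TAT and CYP3A4 fell, and ALB, which encodes albumin, had a log2 fold change of -0.29 (SE 0.12, adjusted p = 0.0503). The summed markers and ALB were lowest in the second libraries at 30 and 240 min, where ALB stood at 14440 and 13890 CPM against 16380 to 20350 in the other 8. Those libraries were also the lowest of all in AHSG and in RBP4, and what part this has in the values at these times was not tested. Without the second 240 min library, the AHSG difference from 0 min was -0.31, the least in size when any 1 of the 4 libraries was left out, and it was called in each such fit. The call was lost when libraries were scaled by their ERCC spike-in counts (adjusted p = 0.0899) and in 2 of 3 limma fits on TPM (adjusted p = 0.0509 and 0.0944), with the same direction.

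**Figure D2:**
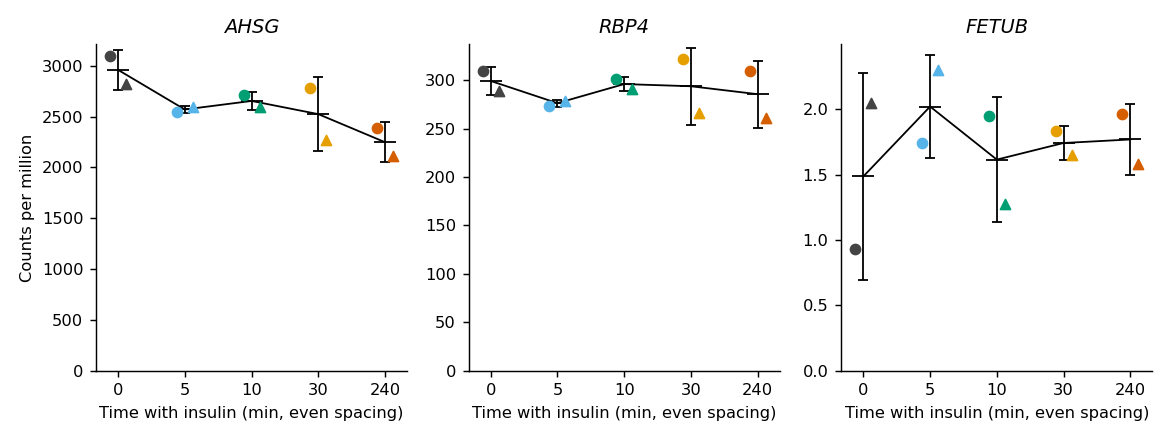
CPM of AHSG, RBP4 and FETUB by time with insulin, with a symbol for each library (circle replicate 1, triangle replicate 2), the mean of the 2 libraries as a dash joined by lines, and the SD as bars. The 0 min libraries of AHSG, at 3100 and 2818 CPM, lie above all others, RBP4 stays between 261.2 and 321.7 CPM, and the FETUB pair at 0 min spans 0.928 to 2.04 CPM.

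The genes whose log2 levels followed AHSG most closely over the 10 libraries, among 10387 tested genes that averaged 5 CPM or more, were TMEM120A (Pearson r = 0.97) and APOM (r = 0.97). APOM encodes an apolipoprotein of high-density lipoprotein. These are descriptions of libraries that share depth, scaling and the times. Among the tested members, the closest pair was AHSG with RBP4 (r = 0.69), and the other 9 pairs lay between -0.30 and 0.51.

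RBP4, which brings retinol from the liver to tissues in a complex with transthyretin, was not called at any time. It was read at 309.1 and 289.3 CPM (0 min), 273.7 and 278.9 (5 min), 301.3 and 290.7 (10 min), 321.7 and 265.8 (30 min), and 309.9 and 261.2 (240 min). Apart from 5 min, where both libraries lay below the 0 min pair, the libraries of each time overlapped those at 0 min. At 5 min the log2 fold change was -0.11 (interval -0.27 to 0.05, adjusted p = 0.51 by edgeR). At 240 min it was -0.06 (SE 0.08, interval -0.22 to 0.10, adjusted p = 0.53). With 4967 or more counts in each library this gene was read deeply, and the interval at 240 min leaves out a change as large as the estimate for AHSG. Whether RBP4 and AHSG changed differently was not tested.

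The IR peak at RBP4 lay at chr10:95360737-95361145 in hg19, was 409 bases wide and had its centre 52 bases from the start of the gene in the deposited annotation. HOMER had marked it as promoter. It covered 1 of the 3 GENCODE starts of the gene, at position 95360992, and not those at 95361420 and 95361501. Its score of 50 ranked 1317th of 1971 peaks, below the median score of 79, and with 1 library there is no replicate of it. A peak within 5 kb of the body was found for 15.7% of the tested genes, and 1 of the 5 tested members had one. The nearest peak to FGF21 was 10.7 kb from its start, with a score of 394, and those nearest the other 5 genes were 155 to 1541 kb away. AHSG, the member that fell, had its nearest peak 1541 kb from its start.

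FETUB, which encodes an inhibitor of the ovastacin protease of the egg and is studied as a fetuin linked to glucose metabolism, was low. Its counts were 20 and 91 (0 min), 44 and 48 (5 min), 51 and 30 (10 min), 51 and 34 (30 min), and 49 and 30 (240 min). In CPM the 0 min libraries were farthest apart, at 0.928 and 2.04, and they enclosed the values of all other libraries except the second at 5 min, at 2.3. The mean was 1.49 ± 0.789 CPM at 0 min and 1.77 ± 0.27 at 240 min (SD, n = 2), a log2 difference of 0.13 (interval -0.49 to 0.75, adjusted p = 0.75 by edgeR). Depending on which 0 or 240 min library was left out, that difference ran from -0.19 to 0.94, so its direction rests on single libraries.

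ANGPTL4 and ANGPTL6 were detected at a few reads. ANGPTL4 had 10 and 21 counts (0 min), 8 and 6 (5 min), 18 and 15 (10 min), 8 and 11 (30 min) and 10 and 6 (240 min). Its CPM values were highest in the 10 min pair, at 0.688 and 0.639, and lowest in the second 5 min and the first 30 min libraries. The log2 fold change was 0.50 at 10 min (interval -0.23 to 1.23, adjusted p = 0.98) and -0.37 at 240 min (interval -1.24 to 0.50, adjusted p = 0.52), and the intervals of edgeR's fit, over 1 log2 unit wide, show what was not detectable at this depth.

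ANGPTL6, also called angiopoietin-related growth factor, had 10 and 20 counts (0 min), 7 and 1 (5 min), 4 and 2 (10 min), 14 and 6 (30 min) and 16 and 3 (240 min). The 5 and 10 min libraries were all below the 0 min pair, and the 30 and 240 min pairs spread around it. Its log2 fold changes were -1.37 at 5 min (unadjusted p = 0.0418, adjusted p = 0.34) and -1.87 at 10 min (unadjusted p = 0.0114, adjusted p = 0.74), neither of them called by edgeR. With 1 library left out, the 5 min value ran from -3.12 (without the first 5 min library) to -0.70 (without the second). By size these ranked 10th and 5th from the lowest of 13852 genes, but the 10 min value stands on 6 counts in 2 libraries. At 240 min the difference was -0.08 (interval -1.15 to 0.99).

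FGF19 and FGF21 were at or under 3 counts in every library. FGF19 had 3 and 3 counts (0 min), 0 and 1 (5 min), 3 and 2 (10 min), 2 and 1 (30 min), and 0 and 0 (240 min), 15 in all. FGF21 had 1 count, in the first 10 min library, and 0 in the other 9. A count of 0 allows a level of up to 3 counts, or 0.0674 to 0.158 CPM depending on the library, for counting error only, and no fold change is given for either gene. Their absence was not shown, and a change at these levels was not detectable at this depth.

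**Figure D3:**
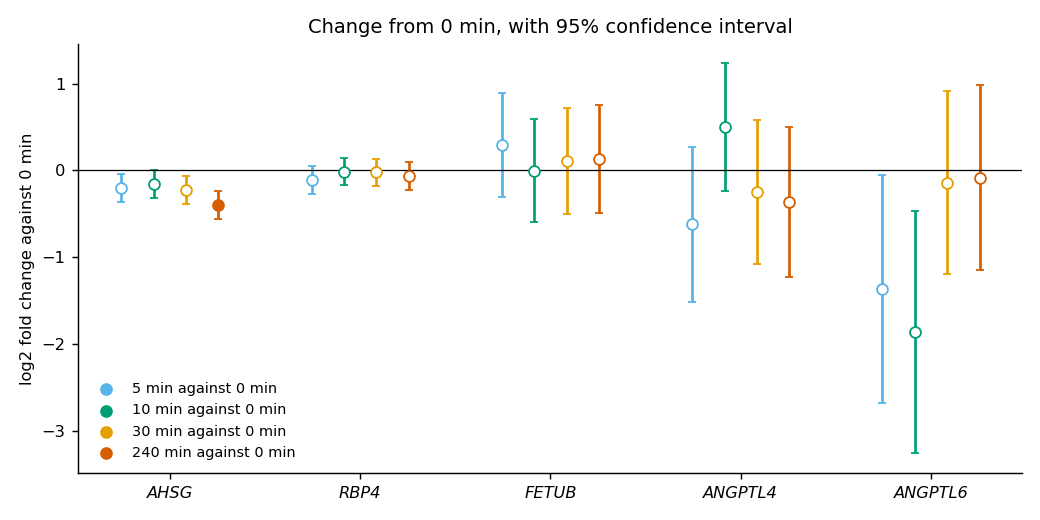
Log2 fold change of the 5 tested members at 5, 10, 30 and 240 min against 0 min, as fitted by edgeR over all 10 libraries, with 95% confidence intervals as bars. The filled point, AHSG at 240 min (-0.40), is the only one called after adjustment over 13852 genes, and the intervals of ANGPTL4 and ANGPTL6 are far wider than those of AHSG and RBP4.

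Genes that act with the members were taken from lists, with the counts at 240 min to be read against the 20.6% of all genes called higher and the 20.4% called lower. Of the angiopoietin-like family and the lipases with their cofactors, 10 genes were tested, of which 2 were higher and 3 lower. ANGPTL8, listed under its older symbol C19orf80 and known as an insulin-induced inhibitor of lipoprotein lipase activity, rose from 0.835 and 1.21 CPM at 0 min to 2.84 and 3.31 at 240 min. Its log2 fold change was 1.50 (SE 0.25, adjusted p = 9.92e-05 by edgeR), while at 5, 10 and 30 min its libraries lay between 0.777 and 1.51 CPM. The gene lies inside DOCK6 on the opposite strand, and DOCK6 had a log2 fold change of -0.01 (adjusted p = 0.92).

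LIPG, endothelial lipase, rose from 22.4 ± 3.44 to 40.1 ± 3.81 CPM (SD, n = 2; log2 0.87). ANGPTL1 fell (log2 -0.57), as did LIPC, hepatic lipase, and LMF2, a homologue of the lipase maturation factor LMF1 (log2 -0.27). The LMF2 call was lost when either 240 min library or the second 0 min library was left out. LPL, GPIHBP1, its anchor on endothelium, and ANGPTL7 had 0 counts in every library, so the enzyme that ANGPTL4 inhibits was not read in these cells.

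Of a list of FGF receptors and co-receptors that also held the adaptor FRS2, 7 genes were tested, of which 3 were higher and 1 lower at 240 min. Not all of these genes are receptors of FGF19 or FGF21. FGFR4, the main receptor for FGF19 in hepatocytes, was at 208.0 and 203.9 CPM (0 min) and 176.8 and 177.2 at 240 min (log2 -0.22, SE 0.07, adjusted p = 0.0189 by edgeR). That call was lost when any 1 of these 4 libraries was left out (log2 -0.23 to -0.21, adjusted p = 0.0557 to 0.0775), and the second 5 min library was lower still, at 168.8. KLB, which encodes beta-klotho, was at 166.2 ± 6.95 and 167.4 ± 18.3 CPM (SD, n = 2; log2 0.02, adjusted p = 0.90). FGFRL1, a receptor without a kinase domain, rose (log2 0.44), as did the adaptor FRS2 (log2 0.31) and FGFR2. FGFR4 and KLB were thus well read in cells where FGF19 and FGF21 were both at or under 3 counts.

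Of the genes that bind, move or convert retinol beside RBP4, 8 were tested, of which 1 was higher and 2 lower at 240 min. RETSAT, which saturates retinol, fell from 122.0 ± 2.22 to 91.6 ± 1.59 CPM (SD, n = 2; log2 -0.41), and RDH10, a retinol dehydrogenase, fell (log2 -0.36). RDH11, a retinal reductase, rose (log2 0.23), a call lost without the second 0 min library. TTR, transthyretin, the partner of RBP4 in plasma, was at 167.5 and 168.6 CPM (0 min) and 171.0 and 137.2 at 240 min (log2 -0.12, adjusted p = 0.20), and it was called lower (log2 -0.29) only when the first 240 min library was left out. STRA6, the RBP4 receptor, was at 0.992 ± 0.0255 and 1.42 ± 0.0799 CPM (log2 0.50, adjusted p = 0.22).

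Near the fetuins on chromosome 3, 7 genes were tested and 1 was lower at 240 min, EIF4A2, a translation initiation helicase (log2 -0.30). The cystatin relatives HRG, histidine-rich glycoprotein, and KNG1, kininogen, were read at 2.04 to 2.87 and 6.05 to 10.1 CPM, with log2 fold changes of -0.14 and 0.11 (adjusted p = 0.63 and 0.68 by edgeR). In these libraries AHSG was thus the only one of the 4 adjacent cystatin-type genes that was called. FETUB, HRG and KNG1 were read at far lower levels, with larger standard errors (0.30, 0.21 and 0.20, against 0.08 for AHSG). Whether the AHSG change differed from theirs was not tested.

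Of 20 other tested hepatokines, 5 were higher and 8 lower at 240 min. IGFBP1, the insulin-like growth factor binding protein that insulin represses through FOXO1, fell from 280.1 ± 14.2 to 38.3 ± 2.26 CPM (SD, n = 2; log2 -2.88, SE 0.07), and FST, follistatin, fell from 128.0 ± 4.52 to 30.4 ± 0.79 CPM (log2 -2.07, SE 0.06). LEAP2, a ligand of the ghrelin receptor, rose (log2 0.70). In absolute terms AHSG fell in CPM by more than either, from a far higher level, but its log2 change was much smaller.

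Of 21 tested genes listed as possible regulators of the members, 5 were higher and 8 lower at 240 min. Whether any of them acts on a member in these cells was not tested. CEBPA, a liver transcription factor, rose from 18.5 ± 0.524 to 40.4 ± 2.18 CPM (SD, n = 2; log2 1.12), while PPARGC1A, the fasting coactivator, fell from 36.4 ± 0.547 to 17.6 ± 1.45 CPM (log2 -1.04), and KLF15 fell (log2 -0.77). FOXO1 fell by 0.22 on the log2 scale, a call lost without the second 0 min library. PPARA, the receptor that induces FGF21 and ANGPTL4, was at 101.0 ± 4.99 and 94.7 ± 0.97 CPM (log2 -0.10, adjusted p = 0.16). Under ERCC scaling the calls at 240 min of HNF4A, ACTA2 (smooth muscle actin, from the markers of other cells), LMF2, FGFRL1, FRS2, FGFR4, RETSAT, RDH10, RDH11, EIF4A2, LEAP2 and FOXO1 were lost, with their directions kept, and those of ANGPTL8, LIPG, ANGPTL1, IGFBP1, FST, CEBPA, PPARGC1A, KLF15 and TAT were kept.

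**Figure D4:**
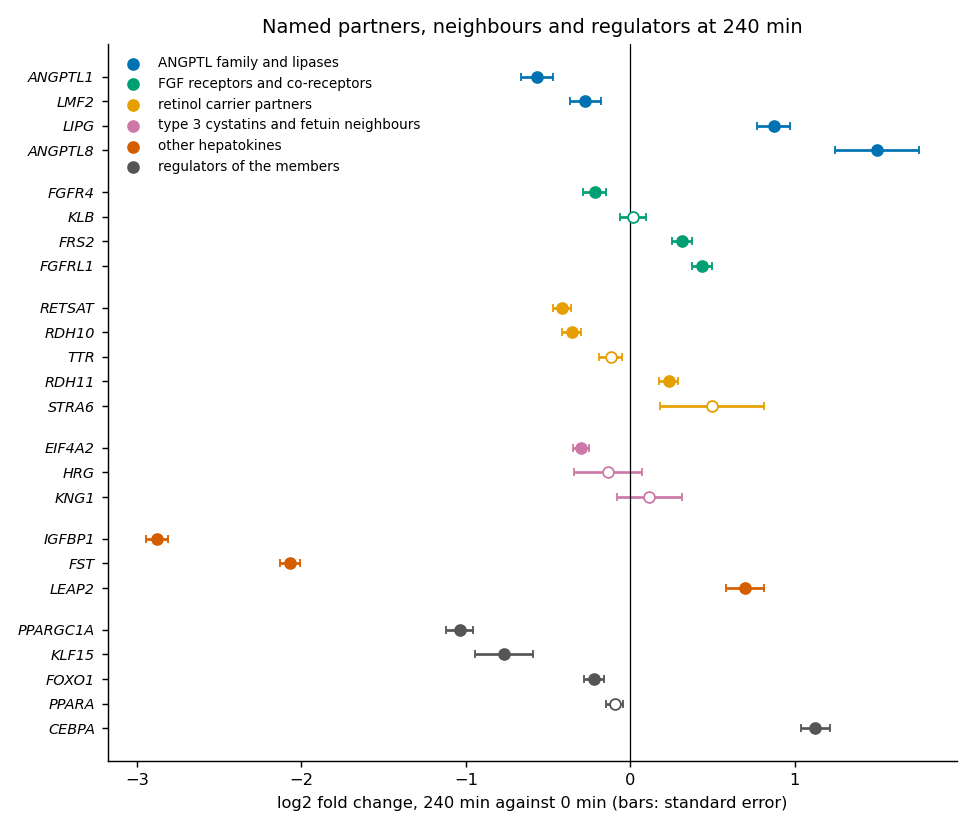
Log2 fold change at 240 min against 0 min of the named partners, neighbours and regulators, with the standard error of edgeR's fit as bars; filled points have an adjusted p under 0.05 and colours mark the lists. IGFBP1 (-2.88) and FST (-2.07) are farthest to the left and ANGPTL8 (1.50) farthest to the right.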

How the data were processed

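RNA-seq of 10 HepG2 libraries and IR ChIP-seq of 1 were used. Per the labels and methods, the authors trimmed single-end reads with Trim Galore 0.6.4, aligned them to hg19 with STAR 2.6.1d, and counted them by reverse strand with featureCounts 1.6.4. The authors deposited raw counts per gene, and StringTie abundances in TPM, scaled for length and depth. They also deposited IR peaks from MACS2 2.2.7.1 with a score for each, annotated by HOMER.

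The 92 ERCC spike-in rows (1.59% to 2.36% of counts) were used neither for library sizes nor for tests. Counts were tested with edgeR 4.0.16 in R 4.3.3 (TMM, filterByExpr by time, quasi-likelihood F test, all 10 libraries in 1 model), and an adjusted p under 0.05 was called. The standard error is the log2 fold change over the root of F. Intervals and limits for 0 counts cover the libraries and counting error only. Named list genes were the 3 largest changes among called genes of at least 5 CPM in each list, and the direct partners of the members. 1 gene of these lists is not reported here. Counts called in lists include genes not named. FGFR2, LIPC, CYP3A4, ALB, APOB, SERPINA1, AFP, KRT19, CD68, GPIHBP1, ANGPTL7 and DOCK6 were named after their values were seen. Likeness was taken on log2(CPM + 0.1). Promoter windows were from RefSeq (GRCh38.p14), and transcript starts from GENCODE lifted to GRCh37. The members and lists were chosen with earlier results of these data known. Alternatives were DESeq2 1.42.0, RLE and ERCC scaling, other filters, a replicate block, limma 3.58.1 on TPM, and each library left out.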

Additional observations from a re-analysis of the deposited data

Results flagged for a closer look

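No group had enough libraries for a test of single libraries that stand apart. For the genes below, the change from 0 min differed between 240 min and 30 min, by edgeR's direct comparison of those times with Benjamini-Hochberg adjustment. Only the named list genes and the 7 members were looked at. Most of the named list genes had been picked for a large called change at 240 min against 0 min. That comparison shares the 240 min libraries, so the differences below are no independent support. Of all tested genes, 38.2% were called between 30 and 240 min. No hepatokine of the 7 was among them. Higher at 240 min than at 30 min, as log2 differences, were ANGPTL8 (C19orf80, 1.36), LIPG (1.06), CEBPA (0.88), LEAP2 (0.55), FGFRL1 (0.46), HNF4A (0.36) and RDH11 (0.35). Lower at 240 min were IGFBP1 (-2.52), FST (-1.83), KLF15 (-0.89), PPARGC1A (-0.81), ANGPTL1 (-0.75), TAT (-0.74), ACTA2 (-0.47), RDH10 (-0.42), RETSAT (-0.40), EIF4A2 (-0.28), FOXO1 (-0.28) and FGFR4 (-0.19). ACTA2, smooth muscle actin, was fixed as a marker of other cell types and was the only one of the 8 tested that was called at 240 min against 0 min (log2 -0.30, adjusted p = 0.00215 by edgeR). That call was lost with ERCC scaling (adjusted p = 0.179), in the 3 limma fits on TPM (0.131 to 0.263) and without the second 0 min library (0.0663).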

How the results depend on the processing

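AHSG at 240 min stayed lower in all 10 other settings, with log2 fold changes of -0.51 to -0.36 and adjusted p of 2.36e-16 to 0.0944, and it was called in 7 of them. The number of members called at 240 min went from 1 to 0 with ERCC scaling (AHSG -0.51, adjusted p = 0.0899), with limma on log2(TPM + 0.1) (adjusted p = 0.0509) and with limma on log2(TPM + 1) without a filter (adjusted p = 0.0944). It stayed at 1 with each of the 4 libraries left out (AHSG -0.49 to -0.31). ERCC scaling moved the median of all genes by -0.33 at 10 min, -0.13 at 30 min and -0.12 at 240 min. The second 10 min library had the highest ERCC share of all, 2.36% of counts, against 1.73% in the first. What part this library has in the shift at 10 min was not tested. At 240 min ERCC scaling left 1059 genes called against 5676, and the limma fit without a filter left 3250. Without a filter on low counts, where 20553 genes were tested, edgeR called 144 genes at 5 min, 74 at 10 min and 160 at 30 min, against 0, 19 and 46 with it, and AHSG was the 1 member called at 5 min (-0.21), at 30 min (-0.23) and between 30 and 240 min (-0.17). With the replicate block the members called between 30 and 240 min went from 0 to 1 (AHSG -0.16, adjusted p = 0.0479 by edgeR). The block changed no other call of a member. Deviations of libraries with the same replicate number correlated above 0.1 in only 2 of 10 pairs of times (-0.12 to 0.14). Taken over all tested genes, low ones included, such values cannot exclude a pairing. With 1 library left out, the members called ranged from 0 to 1 at 30 min (1 without the first 30 min library) and from 0 to 1 between 30 and 240 min (1 without the second 30 min or the first 240 min library), and remained 0 at 5 and 10 min.

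Directions turned only for members that were not called, and for uncalled partners. FETUB at 10 min, -0.0022 as fitted, became 0.070 with DESeq2, 0.00161 without a filter, 0.011 with the replicate block, and 0.075, 0.11 and 0.075 in the limma fits on TPM. ANGPTL6 between 30 and 240 min became -0.12, -0.85 and -0.12 in those limma fits, and KLB at 240 min became -0.10 with ERCC scaling. With 1 library left out, FETUB ranged from -0.031 to 1.10 at 5 min, -0.34 to 0.81 at 10 min, -0.22 to 0.91 at 30 min, -0.19 to 0.94 at 240 min and -0.15 to 0.16 between 30 and 240 min. RBP4 ranged from -0.062 to 0.033 at 10 min, -0.17 to 0.11 at 30 min, -0.20 to 0.051 at 240 min and -0.17 to 0.10 between 30 and 240 min. ANGPTL4 ranged from -0.70 to 0.19 at 30 min and -0.55 to 0.33 between 30 and 240 min, and ANGPTL6 from -0.63 to 0.15, -1.50 to 0.49 at 240 min and -1.36 to 0.63 between 30 and 240 min. At 240 min KLB ranged from -0.11 to 0.12, KNG1 from -0.34 to 0.44 and TTR from -0.29 to 0.024. The members with a peak went from 1 to 2 within 20 kb (FGF21 added), and to 0 with peaks above the median score, and 3 members had a mean of at least 1 in CPM and in TPM alike. Over the named list genes, 334 values in other settings kept direction and call, 37 lost the call, 1 gained it and 6 turned. The causes were not tested.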
